A study of Homo sapiens with 6 samples.

Results

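SR proteins and heterogeneous nuclear ribonucleoproteins (hnRNPs) are the main families of RNA-binding proteins that decide which exons of a pre-mRNA are kept. The members described here were protein-coding genes of GENCODE release 29 whose symbol is SRSF followed by a number or begins with HNRNP. Their mean over the 6 samples also had to be at least 1 FPKM (fragments per kilobase of exon, scaled between samples). Of 39 matching genes, 34 passed, namely 12 of 12 SR genes and 22 of 27 hnRNP genes, out of 14462 genes at that level and 58302 genes listed. The 5 genes below it were HNRNPCL1, HNRNPCL2, HNRNPCL3 and HNRNPCL4, which were listed at 0 in every sample, and the readthrough gene HNRNPUL2-BSCL2, with 0.022 to 0.0962 FPKM.

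The samples were SK-N-BE(2) cells, a human neuroblastoma line, in which Prp19 was silenced with small interfering RNA (siPrp19, n = 3) or which were labelled NC (n = 3), the cells that the study's methods describe as transfected with a control siRNA. The labels give 72 h of transfection, and the study's methods give a shorter time. All 6 samples came from 1 cell line. RNA-seq measured 1 FPKM value per gene and sample, and the comparison asked how the RNA of splicing regulators differed when a core splicing factor was depleted.

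Splicing is carried out by the spliceosome, and the Prp19 complex joins it during activation, when it stabilises the small nuclear RNAs that form its catalytic core. SR proteins carry 1 or more RNA recognition motifs and a tail rich in arginine-serine (RS) dipeptides, bind exonic enhancers and recruit early splicing factors once the tail has been phosphorylated by SRPK and CLK kinases. hnRNPs coat nascent RNA through RNA recognition or KH motifs, many have glycine-rich tails with RGG repeats, and they often act on silencers and against SR proteins. SR genes and several hnRNP genes regulate their own mRNA by including poison exons that send it to nonsense-mediated decay.

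The sequences that tell the families apart are shown by a 60-base coding stretch from each of 4 members, the most abundant gene of each family, the SR gene with the largest difference and an hnRNP rich in RGG repeats, each stretch being the one richest in RS and SR dipeptides or in RGG repeats and glycine. They were read from GENCODE 29 transcripts on GRCh38, 5′ to 3′ on the coding strand. Capitals mark arginine codons in the SR genes and glycine codons in the hnRNP genes.
SRSF1: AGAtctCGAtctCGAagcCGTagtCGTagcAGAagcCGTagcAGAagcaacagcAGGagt
SRSF2: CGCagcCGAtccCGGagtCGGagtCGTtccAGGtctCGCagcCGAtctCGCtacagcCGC
HNRNPA1: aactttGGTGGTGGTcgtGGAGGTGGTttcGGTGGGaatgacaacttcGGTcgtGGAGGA
HNRNPU: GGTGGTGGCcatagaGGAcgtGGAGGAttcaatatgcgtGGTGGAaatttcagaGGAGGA
The SRSF1 stretch lies in exon 4 of 5 at chr17:58005484-58005543 on the minus strand and encodes residues 204 to 223 with 17 RS or SR dipeptides. The SRSF2 stretch lies in exon 2 of 3 at chr17:76736389-76736448 on the minus strand and encodes residues 127 to 146, also with 17 such dipeptides. The HNRNPA1 stretch lies in exon 6 of 11 at chr12:54282590-54282649 on the plus strand and encodes residues 201 to 220 with 2 RGG repeats and 11 glycines. The HNRNPU stretch lies in exon 11 of 14 at chr1:244855905-244855964 on the minus strand and encodes residues 703 to 722 with 3 RGG repeats and 10 glycines.

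Over whole proteins, RS and SR dipeptides separated the families without overlap. The SR proteins had 4.07 (SRSF9) to 23.5 (SRSF2) of them per 100 residues, with a median of 17.6, and the hnRNPs had 0.241 (HNRNPF) to 2.55 (HNRNPA2B1), with a median of 1.14. Glycine overlapped, at 3.82% to 13.8% of residues in SR proteins and 7.52% to 27.2% in hnRNPs. RGG repeats were present in 17 of 22 hnRNPs, up to 8 in HNRNPR, and in 4 of 12 SR proteins. The annotation gave at least 1 transcript marked for nonsense-mediated decay in 12 of 12 SR genes and in 13 of 22 hnRNP genes (59.1%), compared with 42.9% of the 11297 protein-coding genes tested. HNRNPU had 9 such transcripts and SRSF7 had 6, the most in each family. The files give 1 value per gene, so that these transcripts and the productive mRNA are summed in every value below.

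Reads on annotated genes, recovered from the steps between FPKM values, numbered 19058793 to 21943963 in the NC samples and 22273062 to 24181824 in the siPrp19 samples. The 30 members with whole reads rested on 526 reads (SRSF12 in its lowest sample) to 65495 reads (HNRNPA1 in its highest). Defining genes of the adrenergic neuroblastoma cell were present in every sample, with HAND2 at 268 to 350 FPKM and MYCN at 801 to 1215 FPKM. Leukocyte PTPRC was at 0.0402 to 0.116 FPKM, endothelial PECAM1 at 0 to 0.0220 FPKM and epithelial CDH1 at 0 to 0.0148 FPKM, while epithelial EPCAM was at 1.34 to 2.48 FPKM and fibroblast COL1A1 and COL3A1 were at 34.7 to 46.5 and 7.54 to 11.3 FPKM. PRPF19, the targeted gene, was at 53.1, 53.1 and 64.9 FPKM in NC replicates 1, 2 and 3 and at 21.8, 28.5 and 33.6 FPKM in siPrp19, 49.0% of NC, with every siPrp19 sample below every NC sample (log2 change −1.04, SE 0.19, limma adjusted p = 1.00, adjusted p = 0.190 with a block for replicate number, and adjusted p = 1.85e-12 in voom on recovered reads with the block).

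The members were abundantly transcribed. The median NC level per gene was 36.3 FPKM in the SR family and 54.4 FPKM in the hnRNP family, beside 5.79 FPKM over all genes tested. The 12 SR levels lay within a narrow band from 7.60 to 59.2 FPKM, taken as means over the 6 samples, whereas the hnRNP levels ran from 2.52 to 510 FPKM.

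The 4 most abundant SR mRNAs encode SRSF1, SRSF7, SRSF3 and SRSF6. SRSF1, the founding SR protein and a proto-oncoprotein, was at 63.3, 50.4 and 71.7 FPKM in NC replicates 1, 2 and 3 and at 60.0, 48.9 and 60.7 FPKM in siPrp19. SRSF7, which adds a zinc knuckle to its RNA recognition motif, was at 40.0, 40.9 and 60.8 FPKM in NC and at 36.3, 39.8 and 54.5 FPKM in siPrp19. SRSF3, the smallest SR protein and an adaptor for mRNA export, was at 39.6, 40.0 and 56.3 FPKM in NC and at 37.7, 42.1 and 53.1 FPKM in siPrp19. In these 3 genes replicate 3 was the highest sample of each group, and the groups overlapped. SRSF6, an SR protein with a pair of RNA recognition motifs and a long RS tail, was at 43.0, 49.3 and 49.4 FPKM in NC and at 33.9, 47.2 and 44.6 FPKM in siPrp19. Its lowest sample was siPrp19 replicate 1, and only siPrp19 replicates 2 and 3 reached into the NC range.

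At the low end stood SRSF12, a relative of SRSF10 that can act as a repressor, with 8.10, 9.66 and 5.85 FPKM in NC and 7.03, 8.50 and 6.44 FPKM in siPrp19. Unlike most SR genes it was lowest in replicate 3 of both groups. Ordered by NC mean, 9 of 11 neighbouring SR genes had overlapping NC ranges, so that most of this order lies within the spread. The steps that did not overlap were from SRSF5 (30.8 to 38.9 FPKM) down to SRSF10 (16.4 to 18.8 FPKM), and from SRSF8 (12.6 to 16.6 FPKM) down to SRSF12.

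HNRNPA1, which binds exonic and intronic silencers, stood far above every other member. It was at 496, 524 and 439 FPKM in NC replicates 1, 2 and 3 and at 566, 579 and 456 FPKM in siPrp19. Replicate 3 was lowest in both groups, and siPrp19 replicates 1 and 2 lay above every NC sample. HNRNPA1 alone made up 23.1% to 33.8% of the summed hnRNP FPKM in a sample.

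HNRNPK, which binds C-rich RNA and DNA through KH domains, was at 145, 167 and 159 FPKM in NC and at 129, 159 and 150 FPKM in siPrp19. HNRNPA2B1, a close relative of HNRNPA1, was at 124, 99.9 and 176 FPKM in NC and at 124, 96.7 and 167 FPKM in siPrp19. HNRNPAB, which resembles HNRNPD, was at 81.1, 71.6 and 187 FPKM in NC and at 79.4, 64.0 and 176 FPKM in siPrp19. HNRNPAB and HNRNPA2B1 differed far more between replicate 3 and the others than between the groups. HNRNPC, which packages nascent RNA and binds U-rich tracts, was at 87.3, 108 and 94.3 FPKM in NC and at 84.3, 107 and 97.9 FPKM in siPrp19. HNRNPA3 was at 93.2, 74.5 and 119 FPKM in NC and at 89.3, 71.6 and 109 FPKM in siPrp19. For HNRNPC and HNRNPA3 each siPrp19 sample followed the NC sample of its own number, and the groups overlapped.

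The lowest members were HNRNPLL, known for the alternative splicing of CD45 in lymphocytes, and HNRNPA1L2, a copy of HNRNPA1. HNRNPLL was at 15.5, 19.8 and 12.9 FPKM in NC and at 15.4, 19.2 and 12.9 FPKM in siPrp19. HNRNPA1L2 was at 2.41, 2.60 and 2.54 FPKM in NC and at 2.24, 2.75 and 2.61 FPKM in siPrp19. Of 21 neighbouring hnRNP genes in the order of NC means, 16 had overlapping NC ranges, and the steps without overlap were from HNRNPA1 to HNRNPK, from HNRNPF to HNRNPDL, from HNRNPH2 to HNRNPL, from HNRNPL to HNRNPUL2 and, at the bottom, from HNRNPLL to HNRNPA1L2. The remaining 14 hnRNP genes lay between 16.7 FPKM (HNRNPA1P48) and 85.0 FPKM (HNRNPF) in every sample.

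**Figure D1:**
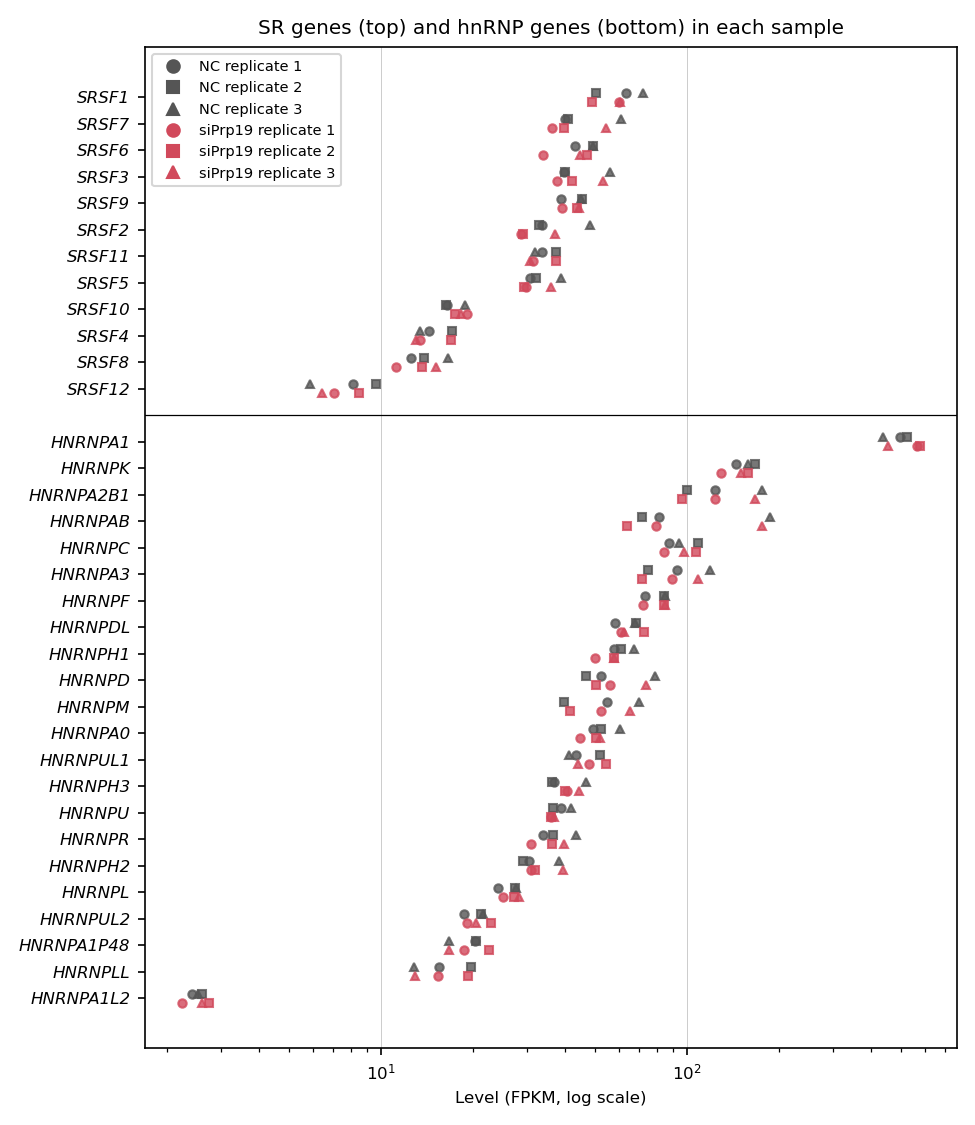
Level of each of the 34 genes in every sample (FPKM, log axis), SR genes above the line and hnRNP genes below it, each ordered by NC mean, with NC in grey, siPrp19 in red and a marker shape per replicate number. SR genes stay within 1 band up to 71.7 FPKM, HNRNPA1 lies at 439 to 579 FPKM, and within most genes the red and grey points overlap.

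Some of these values cannot be assigned to 1 gene with certainty. The coding sequence of HNRNPA1 shared 83.3% of its 50-base words with other annotated genes, among them HNRNPA1P48, which is typed as protein-coding despite its pseudogene name, and 74 annotated pseudogenes carry its name. The shared part was 89.8% for HNRNPA3, 53.7% for HNRNPC and 76.8% for HNRNPA1P48. SRSF1 overlapped other annotated genes over 60.7% of its exon bases, SRSF9 over 46.2%, SRSF2 over 36.7% and HNRNPUL2 over 44.1%. How reads in such places were counted, and whether strand was used, is not given in the sources used here.

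With Prp19 silenced, most SR mRNAs were slightly lower in these samples and the hnRNP mRNAs lay on both sides of 0. No member passed the limma test at an adjusted p under 0.05, 0 of 12 SR and 0 of 22 hnRNP genes beside 0% of all 14462 genes. All differences below are siPrp19 minus NC on the log2(FPKM + 0.1) scale and are small, between −0.26 and 0.13 over the members. At an unadjusted p under 0.05 limma passed 0 members and 225 of all genes. When replicate number entered as a block, limma also called 0 members, beside 0% of all genes, with adjusted p-values of the members between 0.210 and 0.982.

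Because samples with the same number deviated together, the change was read within same-numbered pairs. In the SR family 11 of 12 mean differences (91.7%) were below 0, with a median of −0.09, while 51% of all genes tested were below 0, with a median of −0.0040. The SR median was −0.10 in pair 1, −0.04 in pair 2 and −0.10 in pair 3. In the hnRNP family 12 of 22 mean differences (54.5%) were below 0, with a median of −0.0029, and the medians by pair were −0.02, −0.0029 and −0.08. These are descriptions of the lists, which were not tested. The SR median rested on the replicates: it was −0.00086 without NC replicate 3, −0.01 without siPrp19 replicate 1 and −0.17 without siPrp19 replicate 3. The count of SR genes below 0 moved as well, from 6 of 12 without NC replicate 3 to 11 of 12 without NC replicate 1. With both samples of 1 number left out together the SR median stayed between −0.08 and −0.05. In those fits 10 or 11 of the 12 SR genes were below 0.

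Lower in 3 of 3 pairs were 8 of 12 SR genes (66.7%), SRSF1, SRSF2, SRSF4, SRSF5, SRSF6, SRSF7, SRSF8 and SRSF11, and 7 of 22 hnRNP genes (31.8%), HNRNPA0, HNRNPA3, HNRNPAB, HNRNPH1, HNRNPK, HNRNPR and HNRNPU, beside 21.3% of all genes. Higher in 3 of 3 pairs were 0 of 12 SR genes and 3 of 22 hnRNP genes (13.6%), HNRNPA1, HNRNPH2 and HNRNPUL1, beside 19.2% of all genes. SRSF10, a splicing repressor when dephosphorylated, was the SR gene with a mean difference above 0, at 0.21, 0.10 and −0.04 in pairs 1, 2 and 3. SRSF3, SRSF9 and SRSF12 were mixed among the pairs with means of −0.03, −0.02 and −0.08. Pair 2 contributed least, and in SRSF11 its difference was only −0.00082.

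**Figure D2:**
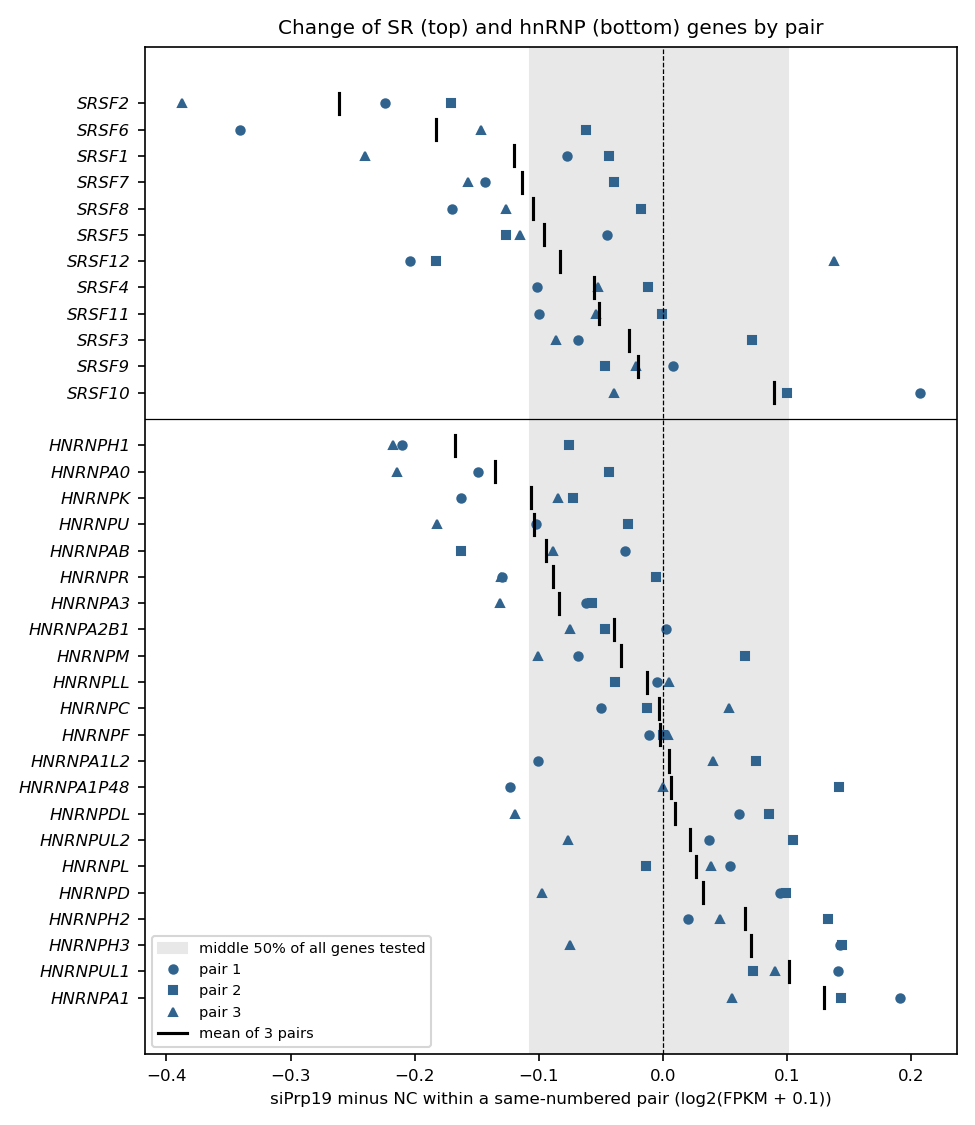
Difference siPrp19 minus NC in log2(FPKM + 0.1) within pairs 1, 2 and 3 for each SR gene (top) and hnRNP gene (bottom), with a black bar at the mean and a grey band for the middle 50% of all 14462 genes. The bars of 11 of 12 SR genes lie left of 0, the hnRNP bars fall on both sides, and the bars of most members lie inside the grey band.

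The largest differences in the SR family were those of SRSF2 and SRSF6. SRSF2, a nuclear speckle protein that is mutated in myeloid neoplasms, was at 33.6, 32.9 and 48.4 FPKM in NC and at 28.8, 29.3 and 37.0 FPKM in siPrp19. The siPrp19 sample was the lower in every pair, although siPrp19 replicate 3 lay above NC replicates 1 and 2. Its log2 differences were −0.22, −0.17 and −0.39, with a mean of −0.26 (SE 0.19 without and 0.059 with the block, limma adjusted p = 0.210 with the block). SRSF6 differed by −0.34, −0.06 and −0.15, with a mean of −0.18 (SE 0.16 without and 0.066 with the block, limma adjusted p = 0.301 with the block). When voom was run on recovered reads with the block, both passed, with adjusted p = 0.0039 for SRSF2 and adjusted p = 0.0377 for SRSF6, and without the block voom called 0 genes. Leaving out a single library, which also breaks its pair, moved both values. SRSF2 was −0.08 without NC replicate 3 and −0.38 without siPrp19 replicate 3. SRSF6 was −0.04 without siPrp19 replicate 1 and −0.28 without siPrp19 replicate 2. With both samples of number 1, 2 or 3 left out, SRSF2 was −0.28, −0.31 and −0.20. SRSF6 was then −0.10, −0.24 and −0.20.

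SRSF1 differed by −0.08, −0.04 and −0.24, with a mean of −0.12 (SE 0.17 without and 0.055 with the block, limma adjusted p = 0.367 with the block), and with 1 sample left out it ranged from −0.26 (without NC replicate 2) to −0.0061 (without NC replicate 3), with −0.02 without siPrp19 replicate 2. SRSF7 differed by −0.14, −0.04 and −0.16, with a mean of −0.11. Neither passed in any fit that was run. With both samples of number 1, 2 or 3 left out, SRSF1 differed by −0.14, −0.16 and −0.06. SRSF8, which arose by retroposition of SRSF2, was at 12.6, 13.8 and 16.6 FPKM in NC and at 11.2, 13.7 and 15.2 FPKM in siPrp19, with a mean difference of −0.10.

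Part of the SRSF2 exon sequence is shared with the neighbouring genes MFSD11 and MIR636, on which reads could be counted as well. MFSD11 was at 3.03, 3.16 and 3.38 FPKM in NC and at 3.26, 3.00 and 3.37 FPKM in siPrp19, with a mean log2 difference of 0.0083. Its part in the SRSF2 difference was not tested. Without the 3 SR genes that share over 30% of their exon bases, SRSF1, SRSF2 and SRSF9, the median of the other 9 was −0.08.

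Among the hnRNP genes that were lower in every pair, HNRNPH1 showed the clearest separation. HNRNPH1, which binds runs of guanines near splice sites, was at 58.0, 60.9 and 67.3 FPKM in NC and at 50.1, 57.8 and 57.9 FPKM in siPrp19. Every siPrp19 sample lay below every NC sample, which held for 1 of 22 hnRNP genes and 0 of 12 SR genes, beside 2.84% of all genes (two-sided exact permutation p = 0.1, the smallest that 3 against 3 samples allow). No member had every siPrp19 sample above every NC sample, beside 2.77% of all genes. The HNRNPH1 differences were −0.21, −0.08 and −0.22, with a mean of −0.17 (SE 0.12 without and 0.049 with the block, limma adjusted p = 0.239 with the block), and voom with the block passed it at adjusted p = 0.0275. Its difference was −0.11 without NC replicate 3 and −0.10 without siPrp19 replicate 1. With both samples of number 1, 2 or 3 left out it was −0.15, −0.21 and −0.14.

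HNRNPA0, which binds AU-rich elements, was at 49.5, 52.2 and 60.4 FPKM in NC and at 44.6, 50.7 and 52.1 FPKM in siPrp19. Only its siPrp19 replicate 1 lay below all NC samples, and the mean difference was −0.14 (SE 0.13 without and 0.051 with the block, limma adjusted p = 0.308 with the block), or −0.05 without NC replicate 3 and −0.07 without siPrp19 replicate 1. HNRNPU, the scaffold attachment factor that ties RNA to chromatin, was at 38.7, 36.7 and 41.8 FPKM in NC and at a narrow 36.1, 36.0 and 36.8 FPKM in siPrp19, with a mean difference of −0.10. HNRNPK and HNRNPAB were lower in each pair by means of −0.11 and −0.09. HNRNPR and HNRNPA3 had means of −0.09 and −0.08. With both samples of number 1, 2 or 3 left out, HNRNPA0 differed by −0.13, −0.18 and −0.10.

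HNRNPA1 was the largest difference upward. Its log2 differences were 0.19, 0.14 and 0.06, with a mean of 0.13 (SE 0.17 without and 0.044 with the block, limma adjusted p = 0.279 with the block), and voom with the block passed it at adjusted p = 0.0491. It was 0.06 without NC replicate 3, 0.08 without siPrp19 replicate 1, 0.07 without siPrp19 replicate 2 and 0.24 without siPrp19 replicate 3. With both samples of number 1, 2 or 3 left out it was 0.10, 0.12 and 0.17. HNRNPUL1, a relative of HNRNPU with roles in DNA end resection, was at 43.4, 51.8 and 41.4 FPKM in NC and at 47.9, 54.5 and 44.0 FPKM in siPrp19, with a mean difference of 0.10 (SE 0.14 without and 0.042 with the block), which ranged from 0.02 (without siPrp19 replicate 2) to 0.20 (without NC replicate 2) with 1 sample left out. HNRNPH2, the X-linked paralog of HNRNPH1, was at 30.5, 29.1 and 38.1 FPKM in NC and at 30.9, 31.9 and 39.3 FPKM in siPrp19, with a mean difference of 0.07 (SE 0.16 without and 0.047 with the block). In both HNRNPUL1 and HNRNPH2 each siPrp19 sample lay above the NC sample of its number while the groups overlapped widely. The HNRNPH2 difference turned to −0.0093 without NC replicate 2 and to −0.04 without siPrp19 replicate 3. With both samples of number 1, 2 or 3 left out, HNRNPH2 differed by 0.09, 0.03 and 0.08. HNRNPUL1 then differed by 0.08, 0.12 and 0.11. The other hnRNP genes, mixed among the pairs, had mean differences between −0.04 (HNRNPA2B1) and 0.07 (HNRNPH3).

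At an unadjusted p under 0.05 in limma with the block, 2 of 12 SR genes (SRSF2 and SRSF6) and 3 of 22 hnRNP genes (HNRNPA0, HNRNPH1 and HNRNPK) were lower, beside 8.77% of all genes, and 0 SR genes and 1 hnRNP gene (HNRNPA1) were higher, beside 6.89%. With voom and the block, 2 of 12 SR genes and 1 of 18 hnRNP genes with whole reads were called lower, beside 4.63% of 13605 genes, and 0 SR genes and 1 of 18 hnRNP genes were called higher, beside 2.93%.

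Summed over the family, SR mRNA stood at 375, 385 and 457 FPKM in NC replicates 1, 2 and 3 and at 348, 374 and 414 FPKM in siPrp19, lower in each pair. The hnRNP sum was 1636, 1680 and 1897 FPKM in NC and 1676, 1728 and 1838 FPKM in siPrp19, lower in pair 3 and higher in pairs 1 and 2. The ratio of the SR sum to the hnRNP sum was therefore 0.229, 0.229 and 0.241 in NC and 0.208, 0.217 and 0.225 in siPrp19. Its means were 0.233 ± 0.0069 (SD, n = 3) and 0.217 ± 0.0088 (SD, n = 3), and no siPrp19 ratio reached an NC ratio. The log2 differences of the ratio were −0.14, −0.08 and −0.10, with a mean of −0.11. The sum weights each gene by its level, and without SRSF1 and HNRNPA1, the most abundant gene of each family, the mean difference was −0.05. The NC and siPrp19 ratios then overlapped. In pair 3 the family median FPKM changed by log2 −0.20 for SR and −0.22 for hnRNP genes, so a ratio of medians was not lower there. The ratio is a description over the members and was not tested.

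**Figure D3:**
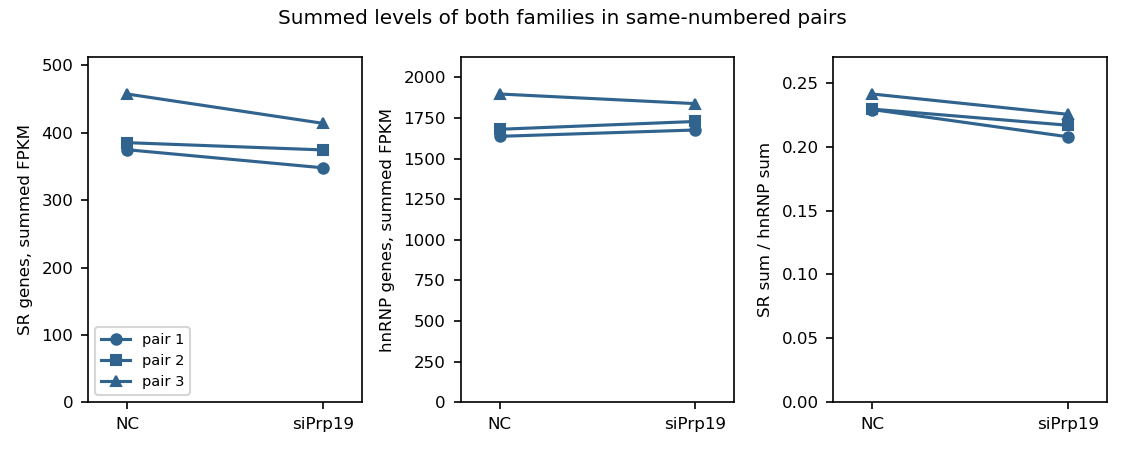
Summed FPKM of the 12 SR genes, summed FPKM of the 22 hnRNP genes and the ratio of both sums (axes from 0), with a line joining the NC and the siPrp19 sample of each pair. The SR sum and the ratio are lower with siPrp19 in 3 of 3 pairs, with ratios of 0.229 to 0.241 in NC and 0.208 to 0.225 in siPrp19, and the hnRNP sum is lower in pair 3.

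Close relatives were compared by the ratio of their FPKM within a sample, over 21 pairs of paralogs. Several of these share a gene. The NC and siPrp19 ratios overlapped in all 21 (smallest two-sided exact permutation p over samples = 0.2, 0.817 adjusted over the 21). Within same-numbered samples the smallest exact sign-flip permutation p was 0.25, the lowest that 3 pairs allow. The log2 difference of the ratio had the same sign in 3 of 3 pairs for 13 of the 21. The share for other pairs of genes was not computed. The ratios described below are all among those 13, so their same sign in every pair follows from that choice. The others, such as SRSF1 to SRSF9 and SRSF10 to SRSF12, were mixed among the pairs. The ratio of HNRNPH1 to HNRNPH2 was 1.90, 2.09 and 1.77 in NC and 1.62, 1.81 and 1.47 in siPrp19. Its log2 differences of −0.23, −0.21 and −0.26 were close to each other (mean −0.23 ± 0.028, SD, n = 3). Against HNRNPH3, the third gene that resembles it, HNRNPH1 differed by a mean of −0.24 ± 0.11 (SD, n = 3).

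The ratio of HNRNPU to HNRNPUL2 was 2.07, 1.72 and 1.94 in NC and 1.88, 1.57 and 1.80 in siPrp19, and its mean log2 difference was −0.13 ± 0.018 (SD, n = 3). HNRNPU to HNRNPUL1 differed by −0.21 ± 0.092 (SD, n = 3). HNRNPA1 was higher relative to its relatives in every pair, by a mean log2 of 0.17 ± 0.034 (SD, n = 3) against HNRNPA2B1, 0.21 ± 0.035 against HNRNPA3 and 0.27 ± 0.076 against HNRNPA0. In the SR family, SRSF3 to SRSF7 differed by 0.09 ± 0.022 (SD, n = 3) and SRSF2 to SRSF8 by −0.16 ± 0.10. HNRNPD, which promotes the decay of AU-rich mRNAs, and HNRNPDL had a mean difference of their ratio of 0.02 ± 0.0098 (SD, n = 3), while the ratio itself ranged from 0.689 to 1.18 among the replicate numbers. HNRNPL, which binds CA repeats, to HNRNPLL likewise differed by 0.04 ± 0.018 (SD, n = 3).

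In many members the samples differed more between replicate numbers than between the groups. Replicate 3 of both groups lay above replicates 1 and 2 of both groups in 5 of 12 SR genes (41.7%), SRSF2, SRSF3, SRSF5, SRSF7 and SRSF8, and in 10 of 22 hnRNP genes (45.5%), beside 25.1% of all genes. It lay below them in 1 SR gene, SRSF12, and in 3 hnRNP genes, HNRNPA1, HNRNPA1P48 and HNRNPLL, beside 23% of all genes. The median log2 difference of replicate 3 from the mean of replicates 1 and 2 was 0.25 in NC and 0.16 in siPrp19 for SR genes, 0.13 and 0.11 for hnRNP genes, and 0.01 and 0.02 for all genes. HNRNPAB differed by 1.30 in NC and 1.31 in siPrp19, HNRNPA2B1 by 0.66 and 0.61, and HNRNPLL by −0.44 and −0.41. What set replicate 3 apart is not given in the sources used here. For the SR family the shift exceeded the siPrp19 difference, and without replicate 3 in both groups the SR median stayed at −0.07.

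**Figure D4:**
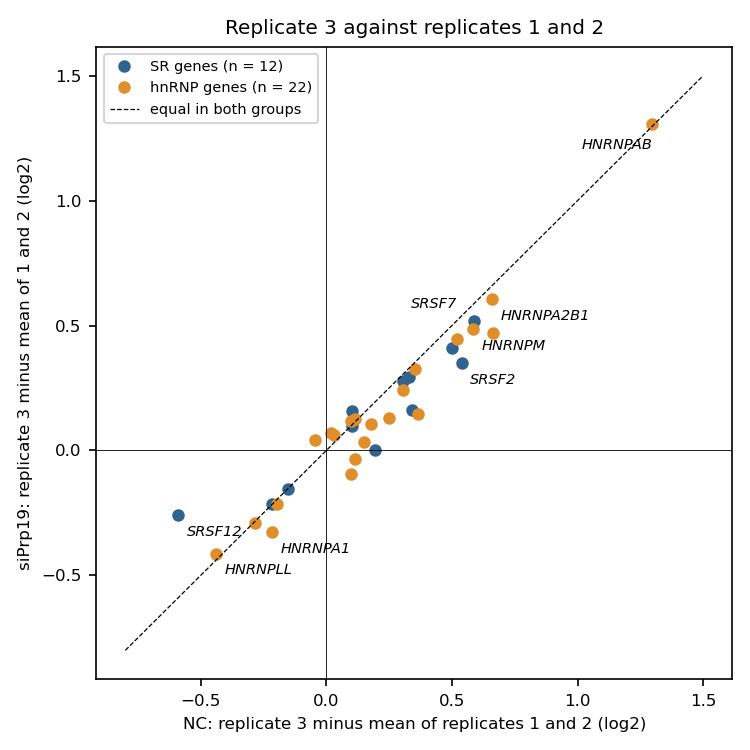
Log2 difference of replicate 3 from the mean of replicates 1 and 2 in NC (x axis) against the same in siPrp19 (y axis), 1 point per gene, SR genes in blue and hnRNP genes in orange, with a dashed line of equality. The points lie along the line, from HNRNPLL at −0.44 and −0.41 to HNRNPAB at 1.30 and 1.31, and SRSF12 (−0.59 in NC, −0.26 in siPrp19) lies away from it.

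Within the SR family the mean difference was set beside 4 features of the genes, after their values were seen. Across the 12 genes the rank correlation of the difference with RS and SR dipeptides per 100 residues was −0.58. With exon length it was 0.62, with glycine content −0.34 and with mean FPKM −0.29. SRSF2, with the most dipeptides per 100 residues and the shortest exon sequence (3017 bases), had the largest difference. SRSF10, with the longest (10277 bases), had the highest. SRSF4, with 22.9 dipeptides per 100 residues, differed by only −0.06. Across the 22 hnRNP genes the correlations with these features were 0.10 (dipeptides), −0.41 (exon length), −0.10 (glycine) and −0.20 (mean FPKM). Genes are not independent replicates, all points share the same 6 libraries, and no test was made.

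**Figure D5:**
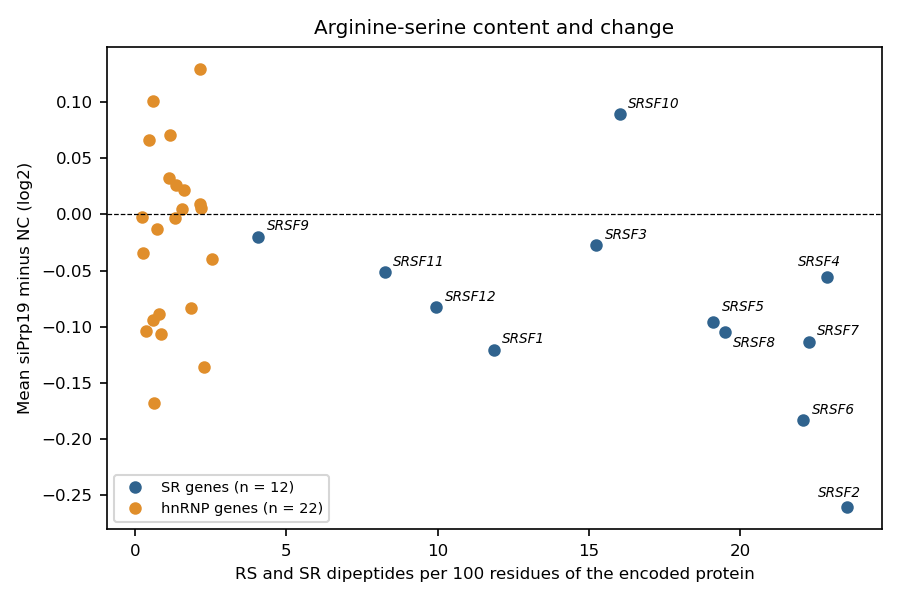
RS and SR dipeptides per 100 residues of each protein (x axis) against the mean log2 difference siPrp19 minus NC (y axis), SR genes in blue with names and hnRNP genes in orange. The hnRNPs lie at or below 2.55 dipeptides with differences on both sides of 0, and the SR genes spread from SRSF9 (4.07, −0.02) to SRSF2 (23.5, −0.26), with SRSF10 (16.0, 0.09) above 0.

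The kinases that act on SR proteins, and the receptors that carry SR or hnRNP proteins into the nucleus, gave a mixed picture. Of 11 SR kinases and import receptors, 10 were tested and SRPK3 was too low, at 0.395 to 1.15 FPKM. Limma called 0 of 10 with and without the block, and their median difference was −0.10. CLK1, a nuclear kinase that phosphorylates RS tails, was at 30.3, 31.8 and 13.3 FPKM in NC and at 24.3, 27.4 and 11.9 FPKM in siPrp19. Replicate 3 was lowest in both groups, each siPrp19 sample lay below the NC sample of its number, and the mean difference was −0.23 (SE 0.44 without and 0.053 with the block). Voom with the block passed it at adjusted p = 0.0069 as 1 of 9 genes of this list with whole reads called lower, beside 4.63% of 13605 genes. It called 0 of the 9 higher, beside 2.93%. Lower in 3 of 3 pairs were 5 of 10, CLK1, DYRK1A, PRPF4B, SRPK1 and the import receptor TNPO1, beside 21.3% of all genes, and higher in 3 of 3 pairs were 3 of 10, CLK2, CLK3 and SRPK2, beside 19.2%. At an unadjusted p under 0.05 in limma with the block, 4 of 10 were lower (CLK1, DYRK1A, SRPK1 and TNPO1), beside 8.77% of all genes, and 0 higher, beside 6.89%. TNPO3, which imports phosphorylated SR proteins, had mixed pairs and a mean of 0.06.

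Among 15 SR-related splicing factors with other symbols limma again called 0 with and without the block, the median difference was −0.02, and 3 were lower and 3 higher in every pair, beside 21.3% and 19.2% of all genes. At an unadjusted p under 0.05 in limma with the block, 0 were lower, beside 8.77% of all genes, and 2 higher, SRRM3 and SRRM4, beside 6.89%. SRRM4, the neural factor that promotes the inclusion of microexons, was at 4.71, 4.58 and 3.40 FPKM in NC and at 6.39, 5.00 and 3.78 FPKM in siPrp19. SRRM3, its relative, was at 10.4, 11.0 and 8.30 FPKM in NC and at 13.6, 11.8 and 9.64 FPKM in siPrp19. Both were higher in every pair with a mean difference of 0.23, and voom with the block passed both, at adjusted p = 0.0180 for SRRM3 and adjusted p = 0.0343 for SRRM4. They were 2 of 15 genes of this list called higher, beside 2.93% of 13605 genes, and 0 were called lower, beside 4.63%. U2AF1, the subunit that reads the AG of the 3′ splice site, was listed at only 0.522 to 3.04 FPKM, whereas its partner U2AF2 was at 40.6 to 47.4 FPKM. Its log2 differences were erratic, at 0.88, −1.62 and −0.79 in pairs 1, 2 and 3. How reads with several matches were treated is not given, so the true level of U2AF1 cannot be read from these values.

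The 14 hnRNP proteins with other symbols include the polypyrimidine tract proteins PTBP1 to PTBP3, the poly(C)-binding proteins and TARDBP. Limma called 0 of them with and without the block, beside 0% of all genes. Voom with the block called 0 lower, beside 4.63% of 13605 genes, and 0 higher, beside 2.93%. At an unadjusted p under 0.05 in limma with the block, 0 were lower, beside 8.77% of all genes, and 0 higher, beside 6.89%. Their mean differences lay between −0.07 (SYNCRIP) and 0.07 (RBMXL1) with a median of −0.03. SYNCRIP, the closest relative of HNRNPR, was the 1 gene lower in every pair (7.14% of the list), beside 21.3% of all genes. RALY, a relative of HNRNPC, was the 1 gene higher in every pair (7.14%), beside 19.2% of all genes.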

How the data were processed

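Total RNA of 6 SK-N-BE(2) samples was sequenced. The authors deposited FPKM values per Ensembl gene, 1 file per sample, and the submitters' processing notes name HISAT2 2.0.5, featureCounts 1.5.0-p3 and hg38. The annotation release, the strand setting and the treatment of reads with several matches are not given in the sources used here.

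Symbols, exons and coding sequences were taken from GENCODE 29 on GRCh38. Median-of-ratios factors of the FPKM values were equal in all samples (1.01), so the deposited values were already on such a scale. Values were analysed as log2(FPKM + 0.1) for the 14462 genes that averaged 1 FPKM or more, using limma 3.58.1 in R 4.3.3 (eBayes with trend) and Benjamini-Hochberg adjustment over all of them, with no block, as the study's methods name none. On this scale the change of low genes is understated. Whole reads, within a tolerance of 0.1, were recovered in all samples for 96.0% of the 37521 annotated genes above 0, which allowed limma voom on 13605 genes. Permutation tests were run in scipy 1.17.1.

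The replicate numbers come from the labels, and the numbers pair the samples: the deviations of same-numbered samples from their group means correlated at 0.38, 0.57 and 0.64. The study describes the samples as replicates of 1 line, so that p-values measure the spread between these samples.

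Values in every sample are given for the most and least abundant members, for up to 5 members with the largest differences in each direction among those that differed in 1 direction in 3 of 3 pairs (5 lower, 3 higher), and for PRPF19. The members and lists were chosen with earlier results of these data known. Alternatives were a pseudocount of 1, no filter or a mean of at least 5 FPKM, TPM, quantile normalization, the block, voom, a robust fit and leaving out samples. Leaving out both samples of a number, leaving out genes that share exons, and comparing gene features with the change were chosen after seeing the data. In simulated data for 13605 genes, 200 were changed by 2-fold or 4-fold, with a log2 spread of 0.15. Limma recovered 166 changed genes and called 12 unchanged ones when blocked, and 63 and 0 when not. Voom recovered 184 and called 5 unchanged ones when blocked, and 83 and 0 when not. The spread was set and not estimated from these samples, so these rates may not hold for the measured data. Blocked limma recovered 77% of the 2-fold genes and 89% of the 4-fold genes there, and in the measured data it called 0 of 14462. Recovery of differences as small as those of the members, between −0.26 and 0.13, was not tested.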

Additional observations from a re-analysis of the deposited data

How the results depend on the processing

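With the replicate block, limma called 0 SR and 0 hnRNP genes, and voom on recovered reads with the block called 2 SR genes, 2 hnRNP genes, 1 SR kinase and 2 SR-related factors. Beside these, voom with the block called 4.63% of 13605 genes lower and 2.93% higher. In the other fits run, no member was called. Over all genes the block moved the calls from 0 to 1029 with voom and from 0 to 124 when only genes averaging 5 FPKM or more were tested. With 1 sample left out, the SR median ranged from −0.17 to −0.00086, the hnRNP median from −0.053 (without NC replicate 1) to 0.051 (without siPrp19 replicate 1), and HNRNPH2 from −0.042 to its highest value of 0.18 (without NC replicate 3). Without replicate 1 in both groups the SR median was −0.053 and HNRNPH2 was 0.089. HNRNPH2 also stayed above 0 without replicate 2 or replicate 3 in both groups. The hnRNP median was 0.0016 with TPM and 0.0017 with quantile normalization. The mean log2 difference of the SR to hnRNP ratio was −0.057 from family medians, −0.052 without the most abundant gene of each family and −0.073 from recovered reads. SRSF1, SRSF2, SRSF6, HNRNPH1, HNRNPA0, HNRNPA1 and HNRNPUL1 kept their direction under the alternatives run, though SRSF1 came to −0.0061 without NC replicate 3. The other members were refitted too and enter here only through medians and counts. Without NC replicate 3, 6 of 12 SR genes and 7 of 22 hnRNP genes were below 0. The cause of the shifts was not tested. The 3 samples a group, no transcript-level values and reads shared among HNRNPA1 copies limit these results.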
